A study of Homo sapiens with 3 samples.

Results

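The 10 selenoprotein genes described here were GPX1, GPX4, SELENOH, SELENOW, SELENOK, SELENOS, SELENOT, SELENOF, SELENOM and SEPHS2. They were taken by gene symbol from a Ribo-seq count table of 63241 genes, and all 10 were among the 19820 genes with enough counts to be tested. Ribo-seq counts the short mRNA fragments that ribosomes protect from nuclease, so a gene's count reflects both how much of its mRNA is present and how many ribosomes sit on it. No RNA-seq was set beside it here, so these 2 quantities cannot be told apart. Likewise, fewer cells carrying a given mRNA cannot be told from less of that mRNA in each cell.

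The cells were HEK293T, a human embryonic kidney epithelial line that also carries the SV40 large T antigen, and they were grown in 3 groups: HEK cells expressing wt p53 (WT), G245S p53 or R273H p53. G245S and R273H are recurrent cancer substitutions in the DNA-binding domain of p53. All groups were treated alike, with cycloheximide for 2 min before harvest and micrococcal nuclease digestion of the lysate, and each had 3 dishes (n = 3), whose barcoded fragments were pooled at reverse transcription within the group, so that group and pool cannot be told apart. The study describes stable lentiviral lines, 1 for each construct, whereas the labels call expression transient and name a transfected wt construct for both mutants; a group without a construct was not analysed here. The libraries held 18719200 to 24595400 counts. MDM2 and CDKN1A, textbook p53 targets, checked the labels: MDM2 averaged 860 CPM (counts scaled to a common library size) in WT against 76.8 in G245S and 76.7 in R273H, and CDKN1A averaged 61.1, 16.1 and 13.9. Of 7 markers of the line (KRT8, KRT18, VIM, PAX2, CDH2, NEFL and NEFM) the lowest group mean was 5.43 CPM, and of 7 markers of other cells 5 (PTPRC, CD3E, PECAM1, ALB and COL1A2) stayed under 0.1 CPM in each group, while COL1A1 averaged 32.5, 28.2 and 27.5 CPM and EPCAM 3.91, 4.01 and 4.88 CPM in WT, G245S and R273H. COL1A1 was thereby lower in both mutants (-0.21, adjusted p 0.0178, and -0.24, adjusted p 0.00448), and the part of its source in the results was not tested.

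Selenoproteins contain selenocysteine, the selenium analogue of cysteine, which is inserted at a UGA codon that elsewhere ends translation. Reading UGA in this way needs a hairpin in the 3′ untranslated region (the SECIS element), the protein SECISBP2 that binds it, the elongation factor EEFSEC and a dedicated tRNA. Where selenocysteine is scarce the ribosome can stop at the UGA, and a stop well before the last exon junction can mark the mRNA for nonsense-mediated decay, a fate long studied for GPX1. Selenoproteins reduce peroxides, repair oxidized molecules and serve in protein quality control of the endoplasmic reticulum (ER).

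The codon that defines the family is shown for each member, with up to 12 coding bases on either side (GENCODE v44, GRCh38, coding strand, 5′ to 3′, the TGA selenocysteine codon in capitals), since its place in the mRNA differs among them.
GPX1: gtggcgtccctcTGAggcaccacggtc
GPX4: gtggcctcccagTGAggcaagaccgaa
SELENOH: cattgcactagcTGAcgcgtctatggg
SELENOW: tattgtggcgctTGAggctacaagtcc
SELENOT: atttgtgtttccTGAggttataggcgg
SELENOM: acctgcgggggaTGAcagctgaaccgc
SELENOF: gaagtttgtggaTGAaaattgggaagg
SEPHS2: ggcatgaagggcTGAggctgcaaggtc
SELENOK: atggctggtggaTGAggaagg
SELENOS: tcatctggcggaTGAggc

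In 7 of the 10 members the base after the TGA is G, in SELENOH and SELENOM it is C and in SELENOF it is A. The codon lies early in the protein of GPX1 (residue 49 of 203), SELENOT (49 of 195), SELENOH (44 of 122), SELENOM (48 of 145), SELENOW (13 of 87), GPX4 (73 of 197) and SEPHS2 (60 of 448), past the middle in SELENOF (96 of 165), and close to the end in SELENOK (92 of 94) and SELENOS (188 of 189). Of these, 8 members carry it before the last exon, 5 nt upstream of the last exon junction in SELENOK and from 78 nt (SELENOF) to 470 nt (SELENOT) upstream in the other 7. SELENOS has it in the last exon, and SEPHS2 is a single-exon gene.

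Against WT, GPX1 changed most among the members in both mutants: by the fitted fold change it fell by 36.0% in G245S, and it fell by 40.5% in R273H. The next in size were SELENOT in G245S, which fell by 12.1%, and SELENOH in R273H, which fell by 17.6%. Counts were scaled to library size, so every change given here is one in a gene's part of all footprints. The total amount of footprints per cell was not measured in these counts. The study reports a higher signal of single ribosomes in both mutant lines under matched input. A change was called where the adjusted p was under 0.05 in edgeR's quasi-likelihood test with Benjamini-Hochberg adjustment over the 19820 genes. In G245S 1 member was higher (GPX4), 4 were lower (GPX1, SELENOH, SELENOK and SELENOT) and 5 were not called, where 12.6% of all genes tested were higher and 12.1% lower. In R273H 4 were lower (GPX1, SELENOH, SELENOT and SEPHS2), none was higher and 6 were not called, where 14.2% of all genes were higher and 14.6% lower; at an unadjusted p under 0.05 and by DESeq2 the count of higher members was also 0. GPX1, SELENOH and SELENOT were lower in both mutants, and SELENOW, SELENOS, SELENOF and SELENOM were called in neither. The median log2 fold change of the 10 was -0.0004 in G245S and -0.078 in R273H, beside -0.0007 and -0.0024 over all genes.

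The members have short coding regions, and genes of that length were called lower more often than longer ones. All but SEPHS2 (1344 nt) have coding regions of 261 to 609 nt. Of the 1680 tested protein-coding genes in that range, 23.5% were lower and 10.9% higher in G245S, and 31.5% were lower and 9.82% higher in R273H; of the 11672 longer ones, 13.5% and 15.1% were lower. The members' 4 lower calls of 10 in each mutant are to be read against these shares too. Each change was therefore also fitted with the trend of counts in coding length and GC content removed in every library. That value is given where it alters a call or moves a value by more than 1.5 times. It is not given for GSR, FTH1, NCOA4, SEPSECS, EIF4A3 and ENSG00000288534. With the trend removed, 15.6% of all genes were higher and 11.9% lower in G245S, and 16.5% were higher and 13.5% lower in R273H; among the members 1 lower call was lost (SELENOK in G245S), and SELENOF was called higher in both mutants.

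**Figure D1:**
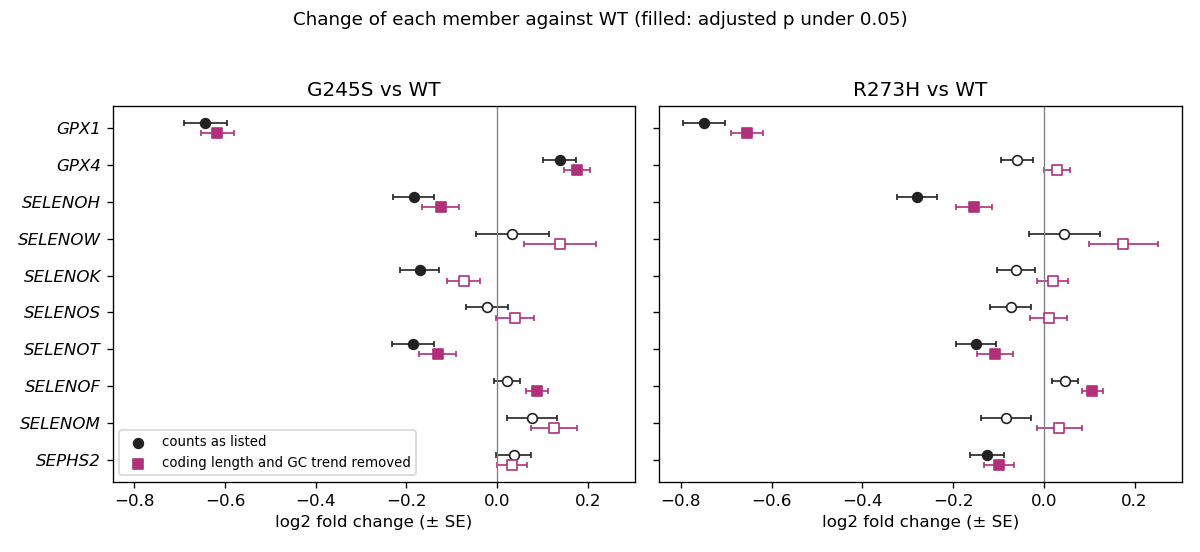
Log2 fold change of each member against WT with its SE, from the counts as listed (circles) and with the coding length and GC trend of each library removed (squares); filled symbols have an adjusted p under 0.05. GPX1 stands at -0.64 and -0.75 and stays called in both fits, while the circles of the other members lie between -0.28 and 0.14 and their squares between -0.15 and 0.18; all but SEPHS2 in G245S shift to the right when the trend is removed.

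GPX1 and GPX4 are the glutathione peroxidases among the members. GPX1, the abundant cytosolic enzyme that reduces hydrogen peroxide, lies on chromosome 3 (ENSG00000233276, 49357174 to 49358605, minus strand) and has its selenocysteine codon in exon 1 of 2. It had 149, 158 and 144 CPM in the WT dishes, 102, 97.4 and 89.9 CPM in G245S and 85.4, 95.3 and 87.6 CPM in R273H. The lowest WT dish lay above every mutant dish, while the dishes of the 2 mutants overlapped. On the log2 scale GPX1 changed by -0.64 in G245S (SE 0.0476, adjusted p 1.47e-08) and by -0.75 in R273H (SE 0.0468, adjusted p 1.41e-09). The difference between the mutants was 0.10 (SE 0.0491, adjusted p 0.310), with a 95% interval from 0.0012 to 0.21, and 0.037 with the trend removed. GPX1 was the only member whose change exceeded 1.2-fold when the test was made against that fold change, and it was so in both mutants.

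The GPX1 count is not a count of uniquely assigned fragments, because much of its coding sequence is repeated elsewhere in the annotation. Of the 582 windows of 28 nt in the coding region, 86.3% also occur exactly in a transcript of another gene. The pseudogene GPX1P1 holds 55.7%, the pseudogene GPX1P2 27.7% and ENSG00000290318, a readthrough gene annotated over GPX1 and RHOA on the same strand, 57.0%. Footprints in the study were somewhat longer than 28 nt, and longer fragments may be shared less often. No other window length was used, here or for the other members. GPX1P1 fell too: its 12.3 CPM in WT stood against 7.53 CPM in G245S (-0.71, adjusted p 1.23e-05) and 6.88 CPM in R273H (-0.83, adjusted p 6.02e-07). The readthrough gene averaged 173 CPM in the WT dishes, 151 CPM with G245S and 154 CPM with R273H, and its change was -0.19 (adjusted p 2.06e-05) and -0.17 (adjusted p 6.11e-05), or -0.12 and -0.093 with the trend removed. Summing GPX1 with its pseudogenes gave -0.65 and -0.755. Adding the readthrough gene, which is annotated over RHOA sequence as well, gave 334 CPM for WT, 255 CPM for G245S (-0.40, adjusted p 3.19e-12) and 251 CPM for R273H (-0.43, adjusted p 4.32e-13); this sum was chosen after seeing the data. GPX1 was lower in both mutants in each of these 3 countings, and the size of the change depended on the counting.

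**Figure D2:**
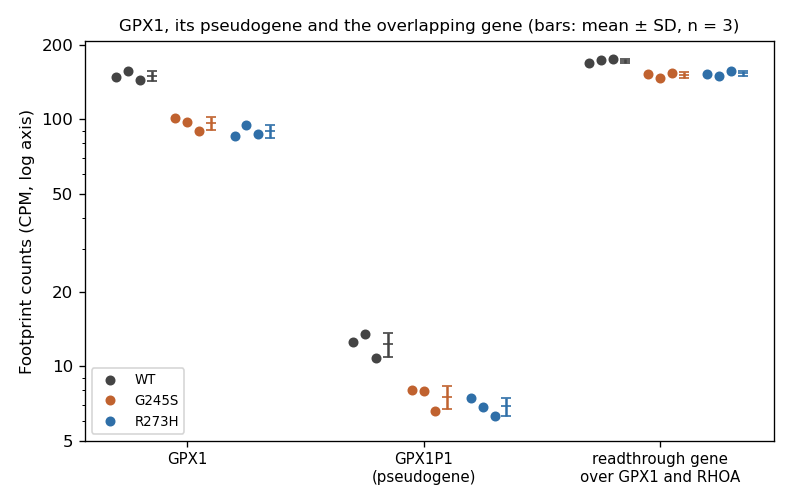
Footprint counts in CPM (log axis) of GPX1, its pseudogene GPX1P1 and the readthrough gene over GPX1 and RHOA, with 1 point per dish and the mean ± SD of 3 dishes beside them. GPX1 and GPX1P1 lie lower in both mutants than in every WT dish, and the readthrough gene does so by a smaller step, from 173 CPM to 151 and 154 CPM.

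GPX4 reduces lipid hydroperoxides within membranes and is the enzyme that holds off ferroptosis. It lies on chromosome 19 (ENSG00000167468, 1103982 to 1106791, plus strand), with the selenocysteine codon in exon 3 of 7, and none of its 28-nt coding windows occurs in another gene. It had 116, 116 and 113 CPM in WT, 132, 128 and 119 CPM in G245S and 113, 110 and 108 CPM in R273H. The G245S dishes lay above all others and the R273H dishes just below the WT dishes. GPX4 was higher in G245S (0.14, SE 0.0359, adjusted p 0.00512) and not called in R273H (-0.059, SE 0.0356, adjusted p 0.226; 0.029 with the trend removed, which turns the direction). G245S exceeded R273H by 0.20 (SE 0.0351, adjusted p 0.00176), a call that held in each of the 9 fits that left out a dish, WT dishes included.

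SELENOH and SELENOW are small proteins with a thioredoxin-like fold, SELENOH in the nucleolus and SELENOW in the cytosol. SELENOH (ENSG00000211450, chromosome 11, 57741491 to 57743554, plus strand, codon in exon 2 of 4) had 51.0, 50.1 and 50.4 CPM in WT, 45.5, 44.9 and 43.2 CPM in G245S and 42.2, 42.5 and 40.2 CPM in R273H. The groups did not overlap, WT being highest and R273H lowest. SELENOH was lower in G245S (-0.18, SE 0.0452, adjusted p 0.00320) and in R273H (-0.28, SE 0.0444, adjusted p 1.87e-05; -0.15 with the trend removed, adjusted p 0.00378), and the difference between the mutants was not called (0.095, SE 0.0451, adjusted p 0.298, 95% interval 0.0031 to 0.19; 0.030 with the trend removed). A readthrough gene on the same strand, ENSG00000254732, holds 64.3% of the coding windows of SELENOH and fell as well, from 55.5 CPM to 45.8 and 45.0 CPM (-0.28, adjusted p 5.88e-05, and -0.30, adjusted p 1.22e-05). With the trend removed its values were -0.080, not called (adjusted p 0.218), and -0.13 (adjusted p 0.0301). SELENOH summed with this gene and another same-strand readthrough gene over it, ENSG00000288534, gave -0.18 and -0.20. ENSG00000288534 held none of the shared coding windows. It averaged 23.9, 24.2 and 26.2 CPM in WT, G245S and R273H and was not called (0.020, adjusted p 0.916, and 0.13, adjusted p 0.381). This sum too was chosen after seeing the data.

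SELENOW (ENSG00000178980, chromosome 19, 47778677 to 47784686, plus strand, codon in exon 2 of 6) was the least counted member, with 230 to 328 counts a library. It had 13.5, 13.6 and 12.1 CPM in WT, 13.2, 13.6 and 13.4 CPM in G245S and 13.3, 13.1 and 14.1 CPM in R273H, and the groups overlapped. It was called in neither mutant, at 0.034 (adjusted p 0.813) with a 95% interval from -0.13 to 0.20 in G245S and 0.045 (adjusted p 0.720) with an interval from -0.12 to 0.21 in R273H, and with the trend removed at 0.14 (adjusted p 0.208) and 0.18 (adjusted p 0.0846). Of its coding windows 13.7% recur in a pseudogene, which had no counts.

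SELENOK, SELENOS, SELENOT, SELENOF and SELENOM belong to the ER. SELENOK and SELENOS sit in its membrane and take part in the degradation of misfolded proteins, SELENOK also as the partner of the palmitoyltransferase ZDHHC6. SELENOK (ENSG00000113811, chromosome 3, 53884417 to 53891885, minus strand, codon in exon 4 of 5) had 77.8, 81.9 and 84.7 CPM in WT, 72.4, 68.7 and 75.7 CPM in G245S and 78.9, 74.7 and 80.8 CPM in R273H. The G245S dishes lay below the WT dishes, and the R273H dishes overlapped both. It was lower in G245S (-0.17, SE 0.0430, adjusted p 0.00388), a call that ended with the trend removed (-0.074, adjusted p 0.131), and was not called in R273H (-0.061, adjusted p 0.298; 0.020 with the trend removed). The mutants were not separated by the test (-0.11, SE 0.0421, adjusted p 0.174, 95% interval -0.20 to -0.024). Pseudogenes hold 38.4% of its coding windows and had group means of at most 1.28 CPM each.

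SELENOS (ENSG00000131871, chromosome 15, 101270817 to 101277500, minus strand, codon in exon 6 of 6) had 56.8, 57.7 and 58.0 CPM in WT, 61.1, 54.6 and 54.5 CPM in G245S and 52.9, 56.4 and 54.8 CPM in R273H. A single G245S dish was above WT and the other two were below it, while the R273H dishes were all slightly below WT. Neither change was called (-0.022, adjusted p 0.782, and -0.073, adjusted p 0.243), and both turned positive with the trend removed (0.040 and 0.011). The 95% interval was -0.12 to 0.073 for G245S, and for R273H it was -0.17 to 0.020.

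SELENOT, a membrane oxidoreductase of the ER, lies on chromosome 3 (ENSG00000198843, 150602875 to 150630436, plus strand), with the codon in exon 2 of 6. It had 56.5, 56.0 and 57.9 CPM in WT, 47.4, 49.8 and 52.3 CPM in G245S and 49.2, 52.7 and 51.6 CPM in R273H. All WT dishes were above all mutant dishes, and the mutants overlapped. SELENOT was lower in G245S (-0.19, SE 0.0456, adjusted p 0.00316) and in R273H (-0.15, SE 0.0443, adjusted p 0.0109), the latter not without R273H dish 1 (-0.12, adjusted p 0.0771). Of its coding windows 53% recur in 2 pseudogenes, which together with SELENOT gave -0.18 and -0.15. SERP1, which overlaps SELENOT on the opposite strand, averaged 104, 105 and 102 CPM in WT, G245S and R273H and was not called.

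SELENOF and SELENOM are thioredoxin-like proteins of the ER lumen, and SELENOF binds UGGT1, the sensor of glycoprotein folding. SELENOF (ENSG00000183291, chromosome 1, 86862445 to 86914424, minus strand, codon in exon 3 of 5) was the most counted member, with 169, 169 and 173 CPM in WT, 172, 175 and 172 CPM in G245S and 178, 171 and 178 CPM in R273H. The groups overlapped throughout, and neither change was called (0.021, SE 0.0287, adjusted p 0.645, and 0.047, SE 0.0281, adjusted p 0.227). With the trend removed both passed the threshold, at 0.088 (adjusted p 0.00647) and 0.11 (adjusted p 0.000740).

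SELENOM (ENSG00000198832, chromosome 22, 31104772 to 31120069, minus strand, codon in exon 2 of 5) had 30.5, 30.4 and 30.3 CPM in WT, 33.2, 33.3 and 29.9 CPM in G245S and 28.3, 29.5 and 28.4 CPM in R273H. The WT dishes were nearly equal, G245S overlapped them and R273H lay below them. Neither change was called (0.077, adjusted p 0.344, and -0.083, adjusted p 0.282; 0.12 and 0.034 with the trend removed). The difference between the mutants was 0.16 (SE 0.0542, adjusted p 0.123), and it passed the threshold without G245S dish 3 (0.21, adjusted p 0.0316) and was 0.091 with the trend removed (adjusted p 0.405).

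SEPHS2 makes selenophosphate, the selenium donor for selenocysteine, and is itself a selenoprotein. It lies on chromosome 16 (ENSG00000179918, 30443631 to 30445874, minus strand). It had 83.5, 78.0 and 77.0 CPM in WT, 83.6, 82.2 and 79.1 CPM in G245S and 73.0, 72.7 and 73.1 CPM in R273H. The R273H dishes, which were close together, lay below all others, and WT and G245S overlapped. SEPHS2 was not called in G245S (0.036, SE 0.0386, adjusted p 0.543) and was lower in R273H (-0.13, SE 0.0382, adjusted p 0.0138), a call lost by DESeq2 (adjusted p 0.0502) and without WT dish 1 (-0.089, adjusted p 0.121). G245S exceeded R273H by 0.16 (SE 0.0379, adjusted p 0.0166), which did not pass without any single one of G245S dishes 1 and 2 and R273H dishes 1, 2 and 3 (adjusted p 0.0520 to 0.108).

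**Figure D3:**
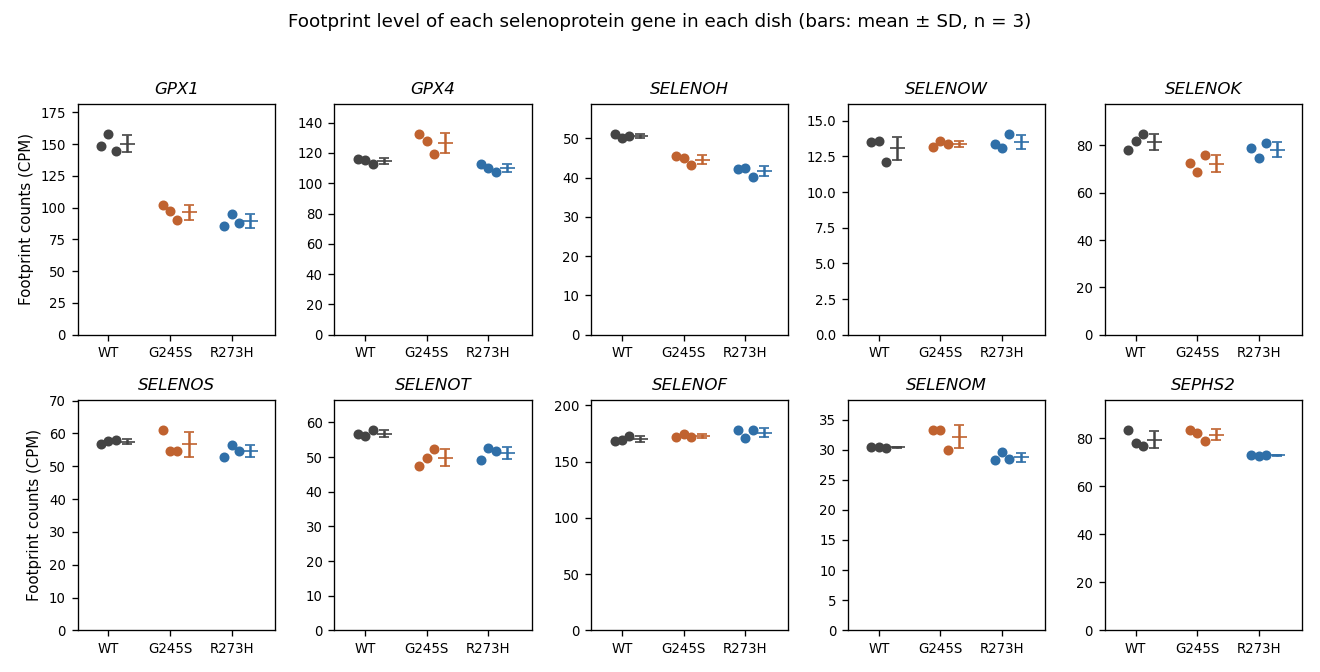
Footprint counts in CPM of the 10 members in each dish of WT, G245S and R273H, each panel starting at 0, with the mean ± SD of 3 dishes beside the points. GPX1 drops from about 150 CPM to 96.4 and 89.5 CPM, GPX4 is raised in G245S alone, SEPHS2 is lowered in R273H alone, and the other panels show small steps or none.

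Compared directly, the mutants differed in 2 members, GPX4 and SEPHS2, both higher in G245S than in R273H and none lower, where 1.86% of all genes were higher and 0.732% lower. Among the 1680 genes with coding regions of 261 to 609 nt, 5.77% were higher and 0.595% lower. Among longer ones, 1.58% were higher and 0.66% lower. At an unadjusted p under 0.05, 5 members were higher and 1 was lower, and by DESeq2 the counts were 2 and 0. The 3 members lower in both mutants (GPX1, SELENOH and SELENOT) all carry the selenocysteine codon 78 nt or more before the last junction. So do GPX4, SELENOW, SELENOM and SELENOF, none of which was lower in either mutant. Among the rest, SELENOK (codon 5 nt before the junction) was lower in G245S and SEPHS2 (single exon) was lower in R273H. SELENOS (codon in the last exon) was called in neither.

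The members together took a small part of the footprints, and a smaller one in the mutants. Their share of all counts was 0.0809%, 0.0817% and 0.0797% in the WT dishes, 0.0751%, 0.0742% and 0.0722% in G245S and 0.0718%, 0.0722% and 0.0714% in R273H, or 0.0808% ± 0.00103 (SD, n = 3), 0.0738% ± 0.00146 and 0.0718% ± 0.000418. All WT dishes were above all mutant dishes. Without GPX1 the shares were 0.0657% ± 0.000313, 0.0643% ± 0.000888 and 0.0628% ± 0.000309. GPX1 accounted for 92.2% of the net fall in the members' summed CPM in G245S and for 68.8% in R273H. These CPM are scaled otherwise than the shares above, which are of unscaled library totals. By those shares the part of GPX1 in the G245S fall is smaller. No test was made on these sums, since the members were chosen with results known.

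Per kilobase of coding region, the level of the members spanned from 344 ± 4.96 CPM per kb for SELENOF to 50.1 ± 3.11 CPM per kb for SELENOW in WT. Between them followed SELENOK (289 ± 12.2), GPX1 (247 ± 11.2), GPX4 (194 ± 3.05), SELENOH (138 ± 1.23), SELENOS (101 ± 1.11), SELENOT (97.1 ± 1.69), SELENOM (69.9 ± 0.163) and SEPHS2 (59.2 ± 2.59 CPM per kb). Each of these neighbours was separated in all 3 dishes in every group, although SELENOS and SELENOT in WT, at 100 CPM per kb or more against 98.9 or less, and SEPHS2 and SELENOW in R273H, at 54.1 or more against 53.9 or less, were close. By this measure the order changed in a single place: GPX1 stood above GPX4 in WT and below it in G245S (158 ± 9.86 against 214 ± 11.3 CPM per kb) and in R273H (147 ± 8.53 against 186 ± 4.33). The GPX1 level rests on how fragments that it shares with other genes were assigned, which is not known. The order depends on the length used: per kilobase of merged exons GPX1 was below GPX4 in G245S (67.3 against 68.7 CPM per kb) and above it in R273H (62.5 against 59.9), SELENOF passed GPX1 in both mutants, and SEPHS2 passed SELENOK in G245S (36.4 against 35.2).

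**Figure D4:**
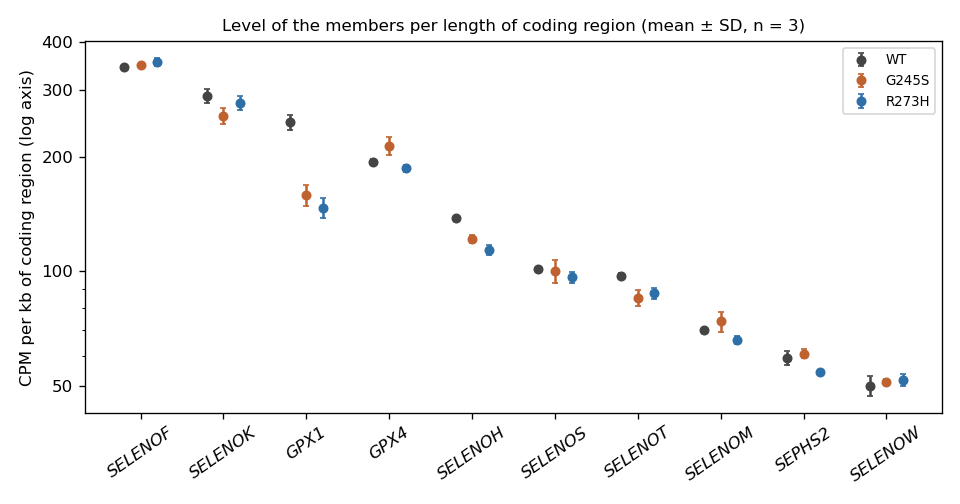
Level of each member in CPM per kilobase of coding region (log axis), as the mean ± SD of 3 dishes in WT, G245S and R273H, ordered by the WT level. SELENOF is highest at 344 CPM per kb in WT and SELENOW lowest at 50.1 CPM per kb, and by this length only GPX1 and GPX4 exchange places between WT and the mutants.

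Of 15 other selenoprotein genes, 9 were tested and the rest (GPX2, GPX6, DIO1, DIO2, DIO3 and SELENOV) had almost no counts. In each mutant 2 were higher, 2 lower and 5 not called, with a median log2 fold change of -0.055 in G245S and -0.012 in R273H. Over all genes, 12.6% were higher and 12.1% lower in G245S, and 14.2% and 14.6% in R273H. TXNRD1, the cytosolic thioredoxin reductase, had 166, 165 and 173 CPM in WT, 180, 177 and 184 CPM in G245S and 182, 183 and 179 CPM in R273H, so every mutant dish was above every WT dish (0.11, adjusted p 0.00740, and 0.11, adjusted p 0.00374). SELENOI, an ethanolamine phosphotransferase of phospholipid synthesis, was higher in both (0.19, adjusted p 0.000130, and 0.17, adjusted p 0.000310). GPX3, the secreted glutathione peroxidase, was lower in both (-0.19, adjusted p 0.0444, and -0.24, adjusted p 0.00644), but its G245S call was lost in 15 of the 20 alternatives run, DESeq2 and the trend removal (-0.14, adjusted p 0.118) among them.

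Of 17 genes listed for selenocysteine synthesis and insertion, G245S had 1 higher and 2 lower, and R273H had 2 higher and 4 lower. Their medians were -0.0017 and 0.045. Of all genes 12.6% and 12.1% were higher and lower in G245S, and 14.2% and 14.6% in R273H. The largest change was that of SEPSECS in G245S (-0.36, adjusted p 0.00265), which was not called in R273H (-0.063, adjusted p 0.614). The higher gene in G245S was EIF4A3 (0.073, adjusted p 0.0328), not called in R273H (0.018, adjusted p 0.638). SECISBP2 averaged 25.9 CPM in WT, 27.4 in G245S and 26.5 in R273H (0.078, adjusted p 0.370, 95% interval -0.043 to 0.20, and 0.032, adjusted p 0.731, 95% interval -0.086 to 0.15, -0.0068 with the trend removed). EEFSEC averaged 34.6, 37.0 and 34.5 CPM (0.094, adjusted p 0.313, 95% interval -0.038 to 0.23, and -0.00094, adjusted p 0.993, 95% interval -0.13 to 0.13, 0.015 with the trend removed). SARS1, the seryl-tRNA synthetase that charges the selenocysteine tRNA with serine as it does the serine tRNAs, was the single gene of the list lower in both mutants, at 276 ± 3.00 CPM in WT against 238 ± 2.02 CPM in R273H (-0.21, adjusted p 1.44e-07; -0.17, adjusted p 5.78e-06, in G245S).

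Relatives that do the same kind of chemistry with cysteine, the peroxiredoxins, thioredoxins, glutaredoxins and methionine sulfoxide reductases, went both ways. Of 18 listed, 17 were tested. G245S had 6 higher and 4 lower, and R273H had 5 higher and 6 lower, with medians of 0.059 and 0.0099. Of these, 4 were higher and 4 lower in both mutants. The shares over all genes were 12.6% higher and 12.1% lower in G245S, and 14.2% and 14.6% in R273H. PRDX5 (-0.17, adjusted p 0.000142, and -0.30, adjusted p 1.03e-08) and PRDX2 (-0.10, adjusted p 0.00209, and -0.17, adjusted p 3.83e-06; -0.054 and -0.083 with the trend removed) were among the lower ones, and the ER peroxiredoxin PRDX4 was among the higher ones (0.10, adjusted p 0.00329, and 0.11, adjusted p 0.00237). MSRB2, the mitochondrial methionine sulfoxide reductase that carries cysteine where its relative MSRB1 carries selenocysteine, was lower (-0.36, adjusted p 0.000785, and -0.27, adjusted p 0.00518, the latter -0.18 and not called with the trend removed, adjusted p 0.0518). MSRB1 itself was not called (0.041, adjusted p 0.606, and 0.018, adjusted p 0.827), but with the trend removed it was higher in both (0.12, adjusted p 0.0441, and 0.14, adjusted p 0.0220).

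The ER partners of SELENOK, SELENOS and SELENOF include the ATPase VCP and the derlins, which draw misfolded proteins out of the ER. Of 9 genes, 3 were lower and none higher in G245S (1 was higher at an unadjusted p under 0.05 and 0 by DESeq2). In R273H 2 were lower and 1 higher. The medians were -0.022 and 0.014. Over all genes, 12.1% were lower and 12.6% higher in G245S, and 14.6% and 14.2% in R273H. VCP was lower in both mutants (-0.11, adjusted p 0.000687, and -0.15, adjusted p 4.48e-06), as was DERL3, at 7.92 CPM in WT against 5.83 and 5.84 CPM (-0.45, adjusted p 0.00378, and -0.44, adjusted p 0.00260).

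Genes that supply glutathione to GPX1 and GPX4 or set the load of lipid peroxides and iron were more often called higher than lower. This list held the largest increases among the related genes. Of 15 genes, G245S had 8 higher and 2 lower, and R273H had 7 higher and 1 lower, with medians of 0.11 and 0.049. The shares over all genes were 12.6% higher and 12.1% lower in G245S, and 14.2% and 14.6% in R273H. SLC7A11, the cystine importer, had 10.5, 11.7 and 10.8 CPM in WT, 17.1, 17.2 and 16.6 CPM in G245S and 16.1, 15.3 and 15.7 CPM in R273H, every mutant dish being above every WT dish (0.63, adjusted p 4.7e-07, and 0.52, adjusted p 6.99e-06). Its partner chain SLC3A2 was higher (0.33, adjusted p 1.94e-10, and 0.25, adjusted p 3.91e-08), as were ACSL4, which loads polyunsaturated fatty acids into membrane lipids (0.35, adjusted p 2.15e-09, and 0.41, adjusted p 6.74e-11), and the transferrin receptor TFRC (0.35, adjusted p 7.22e-12, and 0.35, adjusted p 5.65e-12). GSR (glutathione reductase), FTH1 and NCOA4 were also called higher in both mutants. The larger of their 2 edgeR adjusted p was 1.76e-05, 0.000812 and 0.00429. Of the enzymes that make glutathione, the synthetase GSS was lower in both mutants (-0.15, adjusted p 0.0069, and -0.25, adjusted p 1.19e-05), the first not without WT dish 1 (-0.11, adjusted p 0.0713). The ligase subunit GCLM was lower in G245S alone (-0.13, adjusted p 0.0350), a call lost in 11 of the 20 alternatives run. DESeq2 and the trend removal (-0.095, adjusted p 0.0846) were among them. In R273H GCLM was not called (-0.044, adjusted p 0.485, and -0.029 with the trend removed). The other subunit, GCLC, was called in neither (0.056, adjusted p 0.506, and 0.049, adjusted p 0.546; 0.0083 in R273H with the trend removed). GPX4, which draws on that glutathione, moved by 0.14 and -0.059 in the same libraries.

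**Figure D5:**
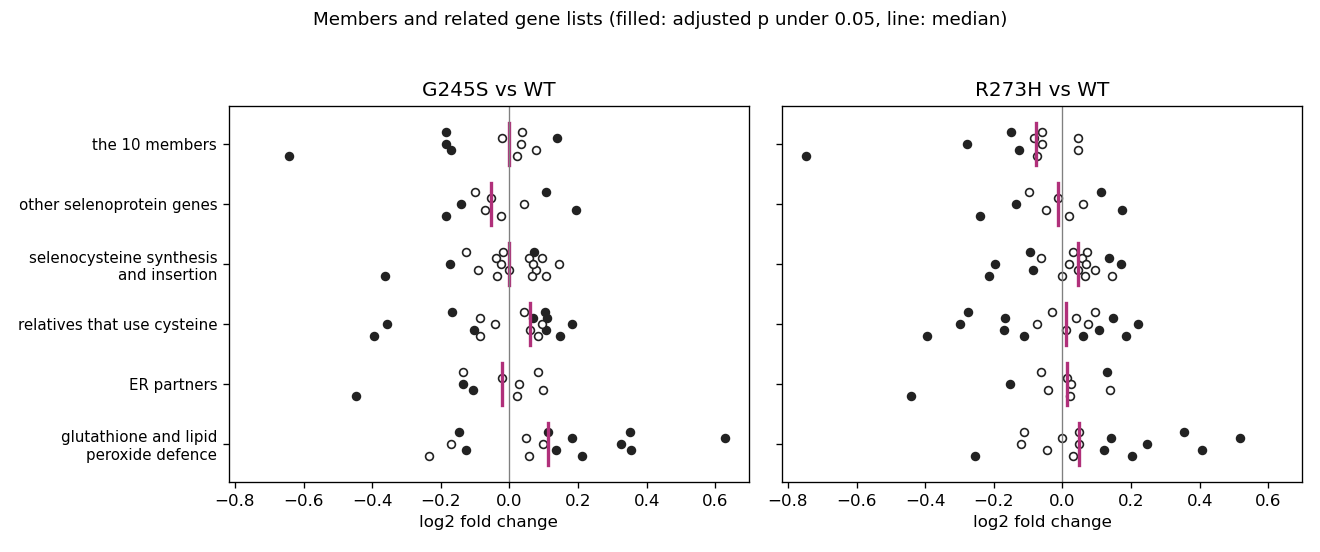
Log2 fold change against WT of each tested gene in the 10 members and the 5 related lists, in G245S (left) and R273H (right); filled points have an adjusted p under 0.05 and the vertical line is the median of the list. GPX1 is the leftmost point of the figure in both mutants, at -0.64 and -0.75, and SLC7A11 the rightmost, at 0.63 and 0.52.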

How the data were processed

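Ribo-seq of HEK293T cells was read from 1 table of estimated counts per gene, which the authors deposited unscaled, with 3 columns for each group. Per the study's methods and the submitters' processing notes, reads were trimmed with Trim Galore, passed through UMI-tools where barcodes were present, filtered for rRNA and aligned with STAR to GRCh38. The counting tool, annotation, strand handling and counted region were not given in the sources used here; shared sequence and overlapping genes can therefore shift counts between genes, and reads on opposite strands may not be told apart.

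Rounded counts went into edgeR 4.0.16 under R 4.3.3 (TMM scaling, filterByExpr, robust quasi-likelihood, 9 libraries in 1 fit, 6 residual degrees of freedom, two-sided, Benjamini-Hochberg over 19820 genes). CPM used TMM-scaled library sizes; log2 fold changes are mutant over WT. DESeq2 1.42.0, other normalizations, no filter, a 1.2-fold minimum, length and GC offsets, a dish block, summed copies and leaving out dishes were alternatives. The study names a Wald test without its tool. Dishes are described as independent; p-values measure the spread between dishes. Depth was 18719200 to 24595400 counts a library, giving 230 to 4376 counts a member. Coding regions, codons and overlaps came from GENCODE v44. The p-value scripts were tested on simulated data.

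The members and lists were chosen with earlier results of these data known. All members were named. From each other list up to 4 genes called in both mutants in the same direction were named, by the smallest larger adjusted p. TXNRD1, SECISBP2 and EEFSEC were named whatever their result. MSRB1, GSS, GCLM, GCLC, GSR, FTH1, NCOA4, SEPSECS and EIF4A3 were added after their values were seen. Of the series, 1 gene is not reported here.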

Additional observations from a re-analysis of the deposited data

Results flagged for a closer look

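The effect of the mutant against WT differed between G245S and R273H for 2 members, by the direct test of the difference in the fit of all 9 libraries. GPX4 changed by 0.14 in G245S and by -0.059 in R273H, a difference of 0.20 (SE 0.0351, adjusted p 0.00176 by edgeR), and each of the 3 G245S dishes was above each of the 3 R273H dishes. SEPHS2 changed by 0.036 and by -0.13, a difference of 0.16 (SE 0.0379, adjusted p 0.0166 by edgeR), again with all 3 G245S dishes above all 3 R273H dishes. This second difference did not pass without any single one of G245S dishes 1 and 2 and the 3 R273H dishes (adjusted p 0.0520 to 0.108). Both effects are measured against the same WT dishes. The role of the pool in which each group was reverse transcribed was not tested.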

How the results depend on the processing

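Of 600 refits of the members' changes (10 members, 3 comparisons, 20 alternatives), 557 kept direction and side of the threshold, 19 lost a call, 6 gained one and 18 changed sign. The log2 changes of GPX1 were lower and called against WT in all alternatives run. The cause of the changes listed here was not tested.

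Tested against a fold change of 1.2, the calls against WT were 1 member in each mutant, 3 genes of glutathione supply and lipid peroxide defence in each (TFRC, ACSL4 and SLC7A11), and 0 among the other selenoproteins, selenocysteine synthesis, cysteine relatives and ER partners, with 547 genes in all in G245S and 693 in R273H; between the mutants they were 0 members, 0 cysteine relatives and 3 genes in all. Other selenoproteins called in G245S were 2 rather than 4 under upper-quartile scaling, without the count filter and by DESeq2. Selenocysteine synthesis in G245S had 5 calls rather than 3 with the trend removed, and between the mutants 1 rather than 0 with the trend removed or without the filter and 2 with only the 6 libraries compared. DESeq2 called 313 genes between the mutants rather than 513.

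With the trend removed SELENOS turned to 0.040 in G245S, and in R273H GPX4 turned to 0.029, SELENOK to 0.020, SELENOS to 0.011, SELENOM to 0.034 and SECISBP2 to -0.0068. EEFSEC in R273H, near zero, turned to 0.0022 (RLE), 0.015 (upper quartile), 0.0095 (no filter), 0.0013 (DESeq2), 0.0021 (only the 6 libraries), 0.015 (trend removed) and 0.00015 (summed with pseudogenes). With pseudogenes added, the members' share became 0.0825% in WT and 0.0730% in R273H. By merged exon length the WT ranks were GPX1 1, SELENOF 2, GPX4 3, SELENOK 4, SEPHS2 5, SELENOH 6, SELENOS 7, SELENOT 8, SELENOM 9 and SELENOW 10.

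Dishes of the same number correlated at 0.042 to 0.229 in their deviations over 12656 genes, and dishes of different numbers at -0.184 to 0.058. In 17 of 18 dish comparisons the best match had the same number. The data thus hold a sign that dishes of 1 number share some variation. The sources used here do not describe the dishes as paired, and the main fit left the number out. With the replicate number as a block, selenocysteine synthesis in G245S had 6 calls, and between the mutants there were 1262 genes called in all, 2 of glutathione supply and lipid peroxide defence, 5 cysteine relatives and 3 of selenocysteine synthesis, and SELENOK passed (adjusted p 0.0404). With the block and the trend removed together these counts, in the same order, were 5, 803, 1, 4 and 2, SELENOS in G245S was 0.040, and in R273H GPX4 was 0.029, SELENOK 0.020, SELENOS 0.011, SELENOM 0.033, SECISBP2 -0.0069 and EEFSEC 0.014.

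Leaving out each dish in turn gave 2 to 3 other selenoproteins and 6 to 10 cysteine relatives called in G245S, and between the mutants 1 to 3 members, 0 to 1 of glutathione supply and lipid peroxide defence, 0 to 3 cysteine relatives, 0 to 2 of selenocysteine synthesis and 162 to 712 genes in all. SELENOW ranged from -0.012 to 0.061 in G245S, -0.0024 to 0.072 in R273H and -0.032 to 0.019 between them, SELENOS from -0.074 to 0.010 in G245S and -0.0020 to 0.082 between the mutants, SELENOT from -0.071 to 0.00011 between the mutants, EEFSEC from -0.077 to 0.080 in R273H and MSRB1 from -0.039 to 0.050 in R273H. Members had 230 to 4376 counts a library, so changes of a few percent were not detectable for SELENOW.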
